A study of Mus musculus with 8 samples.

Results

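Semaphorins, plexins and neuropilins are a family of guidance ligands and receptors, described here in F4/80+ macrophages sorted from the livers of CCl4-treated and vehicle-treated mice. Members were taken by gene name alone (Sema, Plxn with a letter and number, Nrp1 and Nrp2), which gave 31 genes among the 29956 named genes of the deposited FPKM table: 20 semaphorins, 2 neuropilins and 9 plexins. CCl4 is a liver toxin used to produce fibrosis. RNA was measured in 4 libraries from CCl4-treated mice and in 4 from vehicle controls, all wild-type BALB/c. Live CD45+ F4/80+ cells, described as CD31- in the series' design, were sorted after collagenase digestion of the liver. The labels do not state the age of the mice, the CCl4 dose and duration, or whether each library came from a separate mouse, so p-values measure only the spread between these libraries, which may be partly technical.

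Semaphorins are secreted or membrane-bound proteins that share a sema domain and signal mainly through plexins, large single-pass receptors whose cytoplasmic part acts on small GTPases of the Ras and Rap families. Secreted class 3 semaphorins generally need a neuropilin, a receptor with a short cytoplasmic tail that also binds VEGF proteins, as the ligand-binding partner of the plexin. The family was first described in axon guidance and also acts in leukocyte adhesion, migration and activation, where class 4 and class 6 members can also receive signals themselves.

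Sema4d, Nrp2 and Sema4a had the largest increases in CCl4 macrophages among the members that passed the test, and Sema6d was the sole member called lower. Levels are edgeR's TMM-normalized CPM, read counts scaled to library size, from kallisto estimated counts summed per gene. edgeR's quasi-likelihood test was applied to 15212 genes, among them 27 of the 31 members, with Benjamini-Hochberg adjustment over all of them and a threshold of 0.05. It called 6 members higher (Sema4a, Sema4d, Nrp2, Plxna1, Plxna2 and Plxnc1) and 1 lower (Sema6d), which is 22.2% and 3.7% of the 27, beside 8.93% higher and 6.26% lower among all tested genes and 15.2% in either direction. The 2 groups of libraries did not overlap in 8 members, 6 with all CCl4 libraries higher and 2 with all lower, or 29.6% of the 27, beside 13.0% higher, 9.49% lower and 22.5% in all among all genes. The median log2 fold change was 0.32 over the 27 members and -0.03 over all genes. Because the RNA was bulk, fewer cells of a type and less RNA per cell cannot be told apart in any of these values.

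Sema3b, Sema3g, Sema6c and Sema7a did not pass the count filter (a count of about 10 in at least 4 libraries) and stayed at or below 0.856, 0.238, 0.279 and 0.198 CPM in all 8 libraries. A count of 3 corresponded to between 0.118 and 0.143 CPM, so these 4 genes were measured with few counts.

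**Figure D1:**
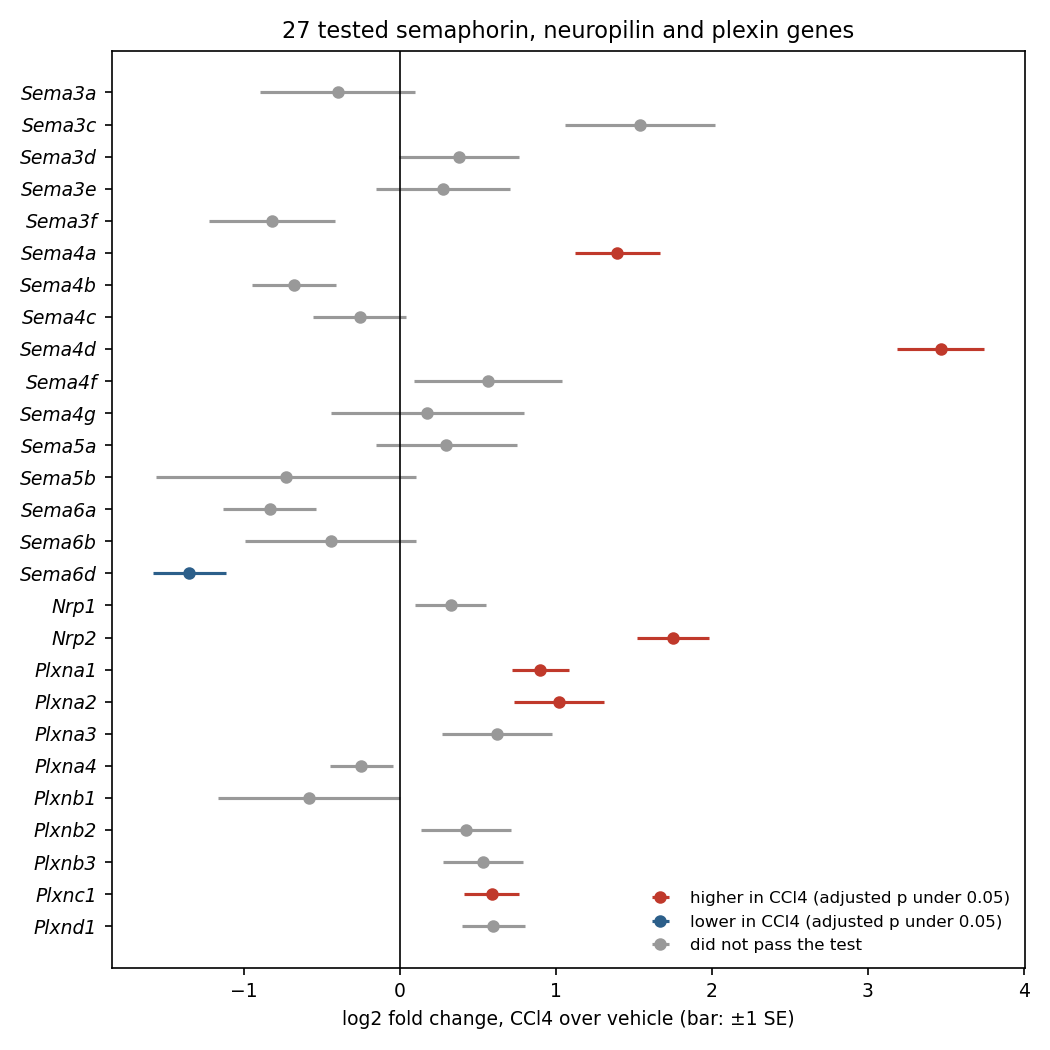
Log2 fold change of CCl4 over vehicle for the 27 tested members, grouped by class, from edgeR's quasi-likelihood fit; bars are 1 standard error, red marks members that were higher, blue the one that was lower (adjusted p under 0.05) and grey those that did not pass. Sema4d, at 3.47, stands farthest to the right and Sema6d, at -1.35, farthest to the left.

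Library totals ran from 19489104 to 26196063 estimated counts. In CCl4 4 and vehicle 2, whose totals were the smallest, 23808 and 22971 genes were detected, where the other 6 libraries had between 19228 and 21614, and their deviations from their group means correlated at 0.47 across genes. They are therefore left out together in one alternative, which again gave 6 members higher and 1 lower, with Sema3c in and Plxna2 out. Over all genes that alternative called 1653 higher and 1163 lower, of 14982 tested. Of 10 macrophage markers, 2 were higher and 1 lower, with sums of 55127 to 75222 CPM in CCl4 libraries and 26298 to 31386 CPM in vehicle libraries. Lyz2, called higher, was the largest part of these sums, at 40685 to 52637 CPM in CCl4 and 13494 to 19705 CPM in vehicle libraries. Ptprc, Adgre1, Cd68, Csf1r, Itgam, Fcgr1 and Mertk were not called. Of 10 Kupffer cell markers, 9 were lower, with sums of 6300 to 11720 CPM in CCl4 and 16840 to 26371 in vehicle libraries. Of 15 endothelial markers, 10 were lower (sums of 286.7 to 468 CPM in CCl4, 699 to 1164 in vehicle). Of 10 mesothelial and cholangiocyte markers, 6 were higher (1540 to 3428 CPM in CCl4, 26.9 to 262 in vehicle). Spp1 made up most of these last sums, with 1476 to 3351 CPM in CCl4 and 18.3 to 222 CPM in vehicle libraries. No other marker of that list exceeded 52.2 CPM in any library, and Krt8, Krt18, Epcam and Sox9 were not called. Of 10 neutrophil markers, 5 were higher (216 to 417 CPM in CCl4, 94.2 to 217 in vehicle). Of 12 stellate cell markers, 3 were higher and 4 lower (579.6 to 936 CPM in CCl4, 678 to 1437 in vehicle), and of 10 hepatocyte markers, 1 was lower (3907 to 6102 CPM in CCl4, 3804 to 5646 in vehicle). Ecm1 was the largest part of the stellate sums, with 400 to 573 CPM in CCl4 and 544 to 900 CPM in vehicle libraries. Col1a1, Col1a2 and Col3a1 were the stellate markers called higher, and Lrat, Rgs5, Reln and Ecm1 those called lower. T and NK cell, B cell, dendritic cell and platelet lists had at most 2 called genes in a direction. All 9 mitochondrial transcripts were lower, with sums of 8230 to 11727 CPM in CCl4 and 17752 to 47709 in vehicle libraries. No marker of any list was at 0 in all libraries. Several of these lists moved with the groups, and their part in the results on the family was not tested.

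Class 3 semaphorins, the secreted ligands of neuropilin and plexin complexes, were all scarce, at no more than 5.57 CPM in any library. Sema3c, which signals through both neuropilins, had 2.04, 1.97, 5.57 and 3.38 CPM in CCl4 libraries 1 to 4, against 0.521, 1.90, 1.15 and 0.880 CPM in vehicle libraries 1 to 4. Every CCl4 library lay above every vehicle library, though by little between CCl4 2 and vehicle 2. edgeR gave a log2 fold change of 1.54 ± 0.48 (SE) with an adjusted p of 0.0525, just outside the threshold. It passed in 6 of the 17 alternatives, among them without vehicle 2 (adjusted p = 0.0215), without CCl4 2 (adjusted p = 0.0469) and in DESeq2 (adjusted p = 0.00889). On log2(TPM + 0.5) values the difference was 0.60 (limma adjusted p = 0.396) and on log2(FPKM + 0.5) values 0.022 (limma adjusted p = 0.943), and on both scales the groups overlapped, with vehicle 2 at 1.63 TPM above CCl4 1, 2 and 3 at 1.33, 0.790 and 1.32 TPM. Sema3f, the classical Nrp2 ligand, averaged 1.40 ± 0.240 CPM in CCl4 and 2.49 ± 1.20 CPM in vehicle libraries (SD, n = 4 each) and was not called (edgeR adjusted p = 0.211). Sema3a, Sema3d and Sema3e averaged 1.07 to 2.42 CPM in either group, had log2 fold changes of -0.40, 0.38 and 0.28, and were not called.

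Class 4 semaphorins, a class of transmembrane ligands, held the largest change of the family. Sema4d (CD100), a ligand of B-type plexins and of Cd72, had 237, 125, 226 and 158 CPM in CCl4 libraries 1 to 4, against 18.8, 10.7, 15.3 and 22.5 CPM in vehicle libraries 1 to 4. The lowest CCl4 library was several times above the highest vehicle library. The means were 186 ± 53.9 CPM in CCl4 and 16.8 ± 5.03 CPM in vehicle libraries (SD, n = 4 each), an 11.1-fold difference (log2 fold change 3.47 ± 0.28 SE, edgeR adjusted p = 2.28e-05). On log2(FPKM + 0.5) values the log2 difference was 1.17, still called by limma. Sema4d lies on the minus strand at chr13:51685529-51793747 (mm10). Its transcript Sema4d-202 held 92.4% to 95.5% of the gene's estimated counts in CCl4 libraries and 70.2% to 91.6% in vehicle libraries, so the count rose in the main transcript model itself.

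Sema4a, a class 4 ligand of myeloid cells that binds plexins and, in mice, Timd2, also rose. Its levels were 51.2, 31.5, 33.7 and 29.0 CPM in CCl4 libraries 1 to 4, against 14.7, 8.73, 10.7 and 21.1 CPM in vehicle libraries 1 to 4. The groups did not overlap, and the means of 36.4 ± 10.1 CPM in CCl4 and 13.8 ± 5.45 CPM in vehicle libraries (SD, n = 4 each) differed by 1.39 ± 0.27 on the log2 scale (SE, edgeR adjusted p = 0.00511). The gene lies on the minus strand at chr3:88435959-88461182 (mm10).

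Sema4b, another transmembrane member of the class, had 21.7, 15.6, 13.6 and 10.2 CPM in CCl4 libraries 1 to 4, against 35.2, 19.9, 26.3 and 16.5 CPM in vehicle libraries 1 to 4. The groups overlapped, CCl4 1 lying above 2 of the vehicle libraries. The log2 fold change of -0.68 ± 0.27 (SE) did not pass (edgeR adjusted p = 0.118), although it did in 2 of the 17 alternatives, with scaling by library size only (-0.81, adjusted p = 0.0419) and with a replicate block (-0.67, adjusted p = 0.0238). Sema4c, a ligand of Plxnb2, averaged 6.11 ± 1.42 CPM in CCl4 and 7.30 ± 2.75 CPM in vehicle libraries (SD, n = 4 each), with a log2 fold change of -0.26. Sema4f and Sema4g stayed at or below 1.52 CPM. None of these 3 was called.

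The class 5 semaphorins, transmembrane proteins with thrombospondin repeats, were low in both groups. Sema5a averaged 2.50 ± 1.36 CPM in CCl4 and 2.04 ± 0.993 CPM in vehicle libraries (SD, n = 4 each), Sema5b stayed at or below 0.836 CPM, and neither was called.

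Class 6 semaphorins are transmembrane proteins that bind A-type plexins. Sema6d, which binds Plxna1, had 54.6, 82.1, 77.1 and 61.9 CPM in CCl4 libraries 1 to 4, against 199, 102, 214 and 189 CPM in vehicle libraries 1 to 4. All CCl4 libraries lay below all vehicle libraries, with vehicle 2 the nearest to them. The means of 68.9 ± 12.9 CPM in CCl4 and 176 ± 50.6 CPM in vehicle libraries (SD, n = 4 each) differed by -1.35 ± 0.23 on the log2 scale (SE, edgeR adjusted p = 0.00227). Sema6d lies on the plus strand at chr2:124089969-124667770 (mm10), and 2 annotated long non-coding genes overlap it on the opposite strand. The library kits named in the labels do not mark strand, so reads of such antisense genes cannot be told apart from those of their partner.

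Sema6a, a ligand of Plxna2 and Plxna4, had 5.60, 4.85, 5.70 and 3.57 CPM in CCl4 libraries 1 to 4, against 6.13, 5.76, 9.65 and 13.7 CPM in vehicle libraries 1 to 4. Group ranges stayed apart in CPM, but CCl4 3 and vehicle 2 were almost equal. On TPM and FPKM values the groups overlapped, with CCl4 4 at 2.53 TPM above vehicle 2 at 2.37 TPM. The log2 fold change of -0.84 ± 0.30 (SE) had an edgeR adjusted p of 0.0836. It came under the threshold in 3 of the 17 alternatives: when vehicle 2 was left out (-0.99, adjusted p = 0.0344) and when counts were scaled by library size alone (-0.99, adjusted p = 0.0412) or by upper quartiles (-0.93, adjusted p = 0.0463). Sema6b averaged 0.982 CPM in CCl4 and 1.34 CPM in vehicle libraries and was not called.

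**Figure D2:**
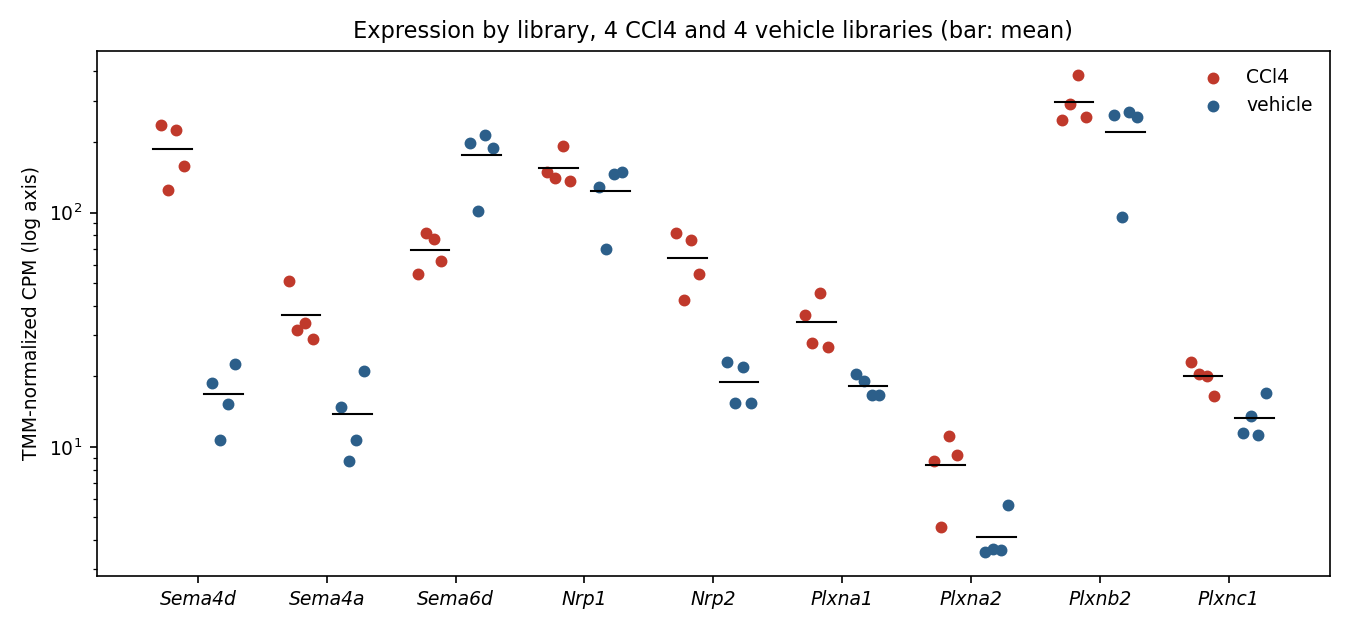
TMM-normalized CPM on a log axis in each of the 4 CCl4 and 4 vehicle libraries for 9 members of the family, with each group's mean as a black line. Sema4d, Sema4a, Nrp2 and Plxna1 lie higher and Sema6d lower in every CCl4 library than in any vehicle library.

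Levels of different genes were compared in deposited TPM (transcript abundance scaled to a fixed total), which corrects for transcript length. Averaged over all 8 libraries, Plxnb2 was highest at 99.6 TPM, followed by Nrp1 at 50.8, Sema4d at 35.3, Sema6d at 25.7, Sema4a at 14.9 and Sema4b at 11.3 TPM. These values include transcript models that are not annotated as protein-coding, so the order of protein-coding transcripts may differ. Much of the Plxnb2 TPM was of this kind, as given below. For Sema4b, the models Sema4b-202 and Sema4b-203, which retain introns, held 45.4% and 18.1% of the counts. The order of the semaphorins differed between the groups. In CCl4 libraries Sema4d led with 60.0 ± 13.2 TPM and Sema6d had 14.2 ± 2.51 TPM, whereas in vehicle libraries Sema4d had 10.6 ± 1.59 TPM and Sema6d led with 37.2 ± 11.9 TPM (SD, n = 4 each). Sema4a and Sema4b averaged 21.3 and 8.74 TPM in CCl4 libraries, and 8.50 and 13.9 TPM in vehicle libraries. In vehicle libraries Sema4d, Sema4a and Sema4b were within about their spread of one another.

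The TPM of all 20 semaphorins added up to 135, 94.5, 111 and 124 in CCl4 libraries 1 to 4, against 85.9, 64.1, 94.4 and 96.5 in vehicle libraries 1 to 4. Sema4d held 53.9%, 44.0%, 57.8% and 49.5% of that sum in CCl4 libraries, against 10.7%, 14.7%, 11.9% and 13.0% in vehicle libraries. Sema6d held 8.03%, 17.8%, 12.9% and 12.0% in CCl4 libraries, against 45.6%, 31.0%, 48.9% and 45.0% in vehicle libraries. The main semaphorin transcript of these sorted cells was thus Sema4d in all 4 CCl4 libraries and Sema6d in all 4 vehicle libraries. The ratio of Sema4d to Sema6d TPM was 6.71, 2.47, 4.50 and 4.11 in CCl4 libraries, against 0.235, 0.476, 0.243 and 0.289 in vehicle libraries. The Sema4d TPM includes Sema4d-208, a 642-base model not annotated as protein-coding. In vehicle libraries it had 33.5 to 53.1 counts, beside 177 to 516 for the 4415-base Sema4d-202. In CCl4 libraries it had 17.6 to 48.7 counts, beside 3019 to 4763. Short models weigh more in TPM than in counts, so the Sema4d values of vehicle libraries are less certain.

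**Figure D3:**
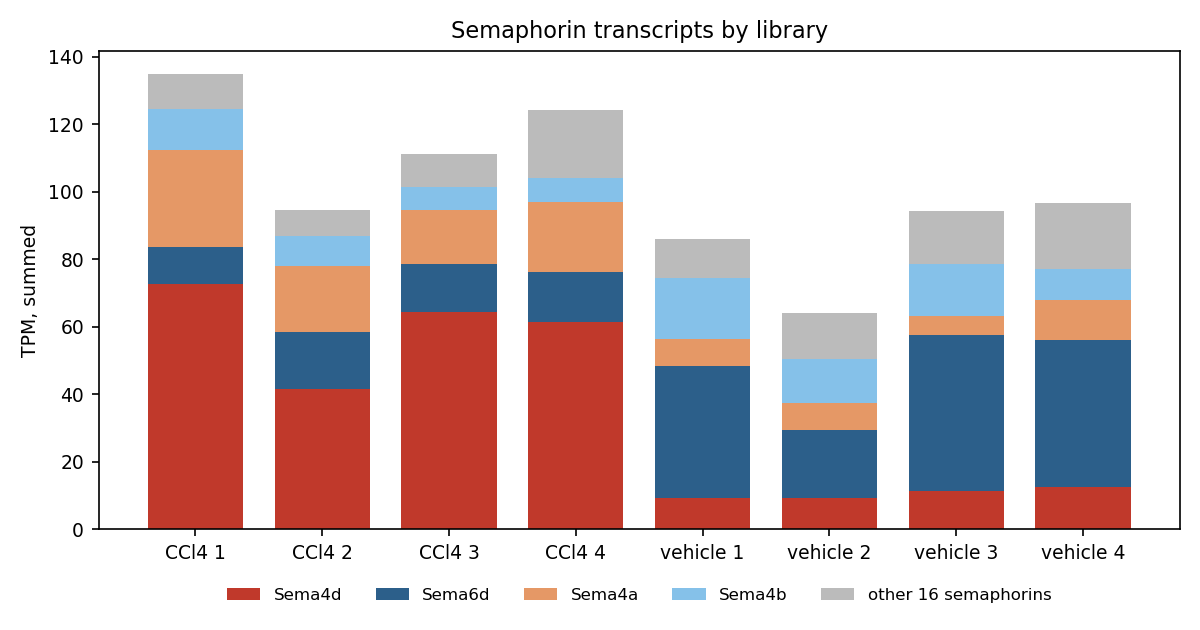
Deposited TPM of the semaphorins stacked by gene, 1 bar for each of the 4 CCl4 and 4 vehicle libraries. Sema4d is the largest block of every CCl4 bar (44.0% to 57.8%) and Sema6d of every vehicle bar (31.0% to 48.9%).

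Nrp1 was abundant in both groups. Nrp1, the co-receptor of Sema3a and VEGF-A, had 148, 141, 192 and 136 CPM in CCl4 libraries 1 to 4, against 128, 69.99, 146 and 149 CPM in vehicle libraries 1 to 4. Vehicle 2 lay far below the other vehicle libraries, and the groups overlapped. Its log2 fold change was 0.32 ± 0.23 (SE, edgeR adjusted p = 0.394), with an approximate 95% interval of -0.12 to 0.77. Nrp1-201 held 92.6% to 96.0% of its estimated counts in every library. The gene lies at chr8:128358604-128503363 (plus strand, mm10).

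Nrp2, the co-receptor of Sema3f and of VEGF-C, rose. It had 81.5, 42.3, 76.6 and 54.5 CPM in CCl4 libraries 1 to 4, against 22.9, 15.4, 21.9 and 15.4 CPM in vehicle libraries 1 to 4. All CCl4 libraries lay above all vehicle libraries. The means of 63.7 ± 18.5 CPM in CCl4 and 18.9 ± 4.05 CPM in vehicle libraries (SD, n = 4 each) differed by 1.75 ± 0.23 on the log2 scale (SE, edgeR adjusted p = 0.000415). Nrp1 remained the larger part of the neuropilin TPM, with 76.0%, 85.5%, 81.7% and 80.9% in CCl4 libraries, against 91.0%, 89.2%, 92.7% and 94.7% in vehicle libraries.

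The Nrp2 gene lies on the plus strand at chr1:62703285-62818695 (mm10) and an annotated antisense gene overlaps it. Alternative last exons give the protein different membrane-spanning and cytoplasmic parts while leaving the ligand-binding part the same. In the GENCODE M21 models, Nrp2-201 and Nrp2-205 end in a proximal last exon (the type known as NRP2b), and Nrp2-202, Nrp2-203, Nrp2-204 and Nrp2-206 in a distal one (the type known as NRP2a, whose end binds the adaptor Gipc1). The coding part of each last exon (for the distal one its last 300 bases) is shown because the transcript results turn on which of the 2 is used. The sequences were read from the M21 transcripts, at chr1:62795709-62795989 for the proximal exon of Nrp2-205 and chr1:62815338-62815637 for the distal exon of Nrp2-204, both on the plus strand of mm10, and capitals mark the stop codon.
Proximal: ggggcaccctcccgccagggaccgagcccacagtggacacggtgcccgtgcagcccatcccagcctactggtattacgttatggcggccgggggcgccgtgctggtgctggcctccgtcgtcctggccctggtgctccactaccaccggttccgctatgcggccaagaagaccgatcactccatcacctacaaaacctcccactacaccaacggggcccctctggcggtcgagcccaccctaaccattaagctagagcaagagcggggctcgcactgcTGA
Distal: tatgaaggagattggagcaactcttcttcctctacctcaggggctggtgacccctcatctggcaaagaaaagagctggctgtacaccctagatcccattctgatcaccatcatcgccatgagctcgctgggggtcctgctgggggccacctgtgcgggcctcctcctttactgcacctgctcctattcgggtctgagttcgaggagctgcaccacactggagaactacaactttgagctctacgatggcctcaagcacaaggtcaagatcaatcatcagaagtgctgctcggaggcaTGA
A further choice, upstream of both last exons, is a 15-base longer form of one exon (chr1:62786281-62786316, capitals mark the added bases). Upstream of the distal exon alone is a 51-base exon carried by Nrp2-202 and Nrp2-206 (chr1:62812534-62812584, all in capitals because the whole exon is optional).
Longer form: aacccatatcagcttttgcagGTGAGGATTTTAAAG
Optional exon: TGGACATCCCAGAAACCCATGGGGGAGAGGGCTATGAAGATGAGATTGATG

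Whether a gene's leading transcript held the same share of its counts in both groups was tested in the 9 members with enough counts and a second transcript above 10%. For Nrp2 the leading transcript, taken over all 8 libraries, was Nrp2-205, with the proximal end. Nrp2 had a mean of 1418 counts in CCl4 and 461 in vehicle libraries, so the CCl4 libraries weighed more in that choice. In vehicle libraries alone Nrp2-202, with the distal end, led. The test thus applies to a transcript picked largely through the CCl4 libraries. Nrp2-205 held 47.6%, 45.6%, 46.5% and 41.5% of the Nrp2 counts in CCl4 libraries 1 to 4, against 21.2%, 33.3%, 17.3% and 18.4% in vehicle libraries 1 to 4. The groups did not overlap, with means of 45.3% ± 2.66 in CCl4 and 22.5% ± 7.35 in vehicle libraries (SD, n = 4 each). The difference of 22.8 percentage points had p = 0.0286 in a two-sided exact permutation test, the smallest value that 4 against 4 libraries can give. After adjustment over the 9 genes it was 0.129, which does not pass. No gene could pass unless most of the 9 reached that smallest value, so the adjusted result cannot decide for a single gene.

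The transcripts were then summed by the last exon they carry, a grouping chosen after their values were seen and therefore given with no test. Transcripts with the proximal exon had 48.7, 24.1, 44.2 and 31.2 CPM in CCl4 libraries 1 to 4, against 5.96, 6.51, 3.78 and 3.82 CPM in vehicle libraries 1 to 4. Transcripts with the distal exon had 30.9, 17.7, 32.1 and 21.9 CPM in CCl4 libraries, against 16.7, 8.85, 18.0 and 11.5 CPM in vehicle libraries. The proximal sums of the groups lay far apart, and the distal sums lay closer and overlapped slightly, CCl4 2 being below vehicle 3. The proximal share was 58.9% ± 1.60 in CCl4 and 27.7% ± 10.5 in vehicle libraries (SD, n = 4 each), with single libraries at 61.2%, 57.7%, 58.0% and 58.7% in CCl4 and at 26.3%, 42.4%, 17.3% and 24.9% in vehicle. Vehicle 2, 1 of the libraries that stood apart, had the highest vehicle share. The 51-base optional exon was in 37.8%, 33.9%, 35.4% and 13.6% of the distal counts in CCl4 libraries, against 60.0%, 33.8%, 53.2% and 35.2% in vehicle libraries, with overlapping groups. kallisto divides reads between transcripts that share exons, so these shares are estimates and depend on the transcript models.

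**Figure D4:**
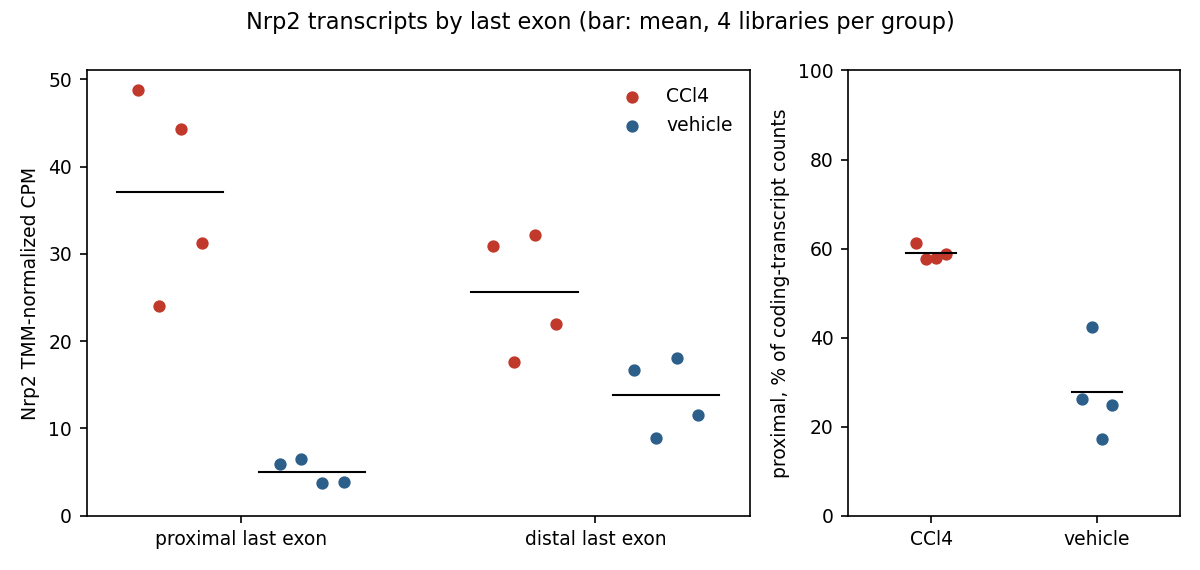
Nrp2 transcripts summed by last exon in each library (TMM-normalized CPM, proximal and distal) and the proximal share in percent, for 4 CCl4 and 4 vehicle libraries. The proximal share is 57.7% to 61.2% in CCl4 libraries and 17.3% to 42.4% in vehicle libraries.

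A-type plexins, the signalling receptors for class 3 semaphorins with a neuropilin and for class 6 semaphorins directly, included 2 called members. Plxna1, which in mouse myeloid cells has been described in a complex with Trem2 and Tyrobp, had 36.4, 27.8, 45.3 and 26.7 CPM in CCl4 libraries 1 to 4, against 20.5, 19.04, 16.7 and 16.6 CPM in vehicle libraries 1 to 4. Every CCl4 library was above every vehicle library, and vehicle libraries lay close together. The means of 34.0 ± 8.65 CPM in CCl4 and 18.2 ± 1.92 CPM in vehicle libraries (SD, n = 4 each) differed by 0.90 ± 0.18 on the log2 scale (SE, edgeR adjusted p = 0.00634). The call was lost on log2(TPM + 0.5) values (0.75, limma adjusted p = 0.0735) and on log2(FPKM + 0.5) values (0.34, adjusted p = 0.102). Plxna1 lies at chr6:89316314-89362620 (minus strand, mm10).

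Plxna2, a receptor of Sema6a, had 8.74, 4.53, 11.1 and 9.23 CPM in CCl4 libraries 1 to 4, against 3.56, 3.67, 3.64 and 5.64 CPM in vehicle libraries 1 to 4. CCl4 2 lay below vehicle 4, so the groups overlapped. edgeR put the log2 fold change at 1.02 ± 0.29 (SE, adjusted p = 0.0347), and this call was kept in 5 of the 17 alternatives. It was lost without CCl4 1, CCl4 3, CCl4 4, vehicle 1, vehicle 2 or vehicle 3 (adjusted p = 0.0836, 0.0998, 0.0661, 0.0852, 0.0577 and 0.0891), without both libraries that stood apart (0.0931) and on TPM values (log2 difference 0.22, limma adjusted p = 0.733), and on FPKM values the log2 difference turned to -0.063. Scaling by library size alone or by upper quartiles and the replicate block also lost the Plxna2 call. The full-length transcript Plxna2-201 held 95.6%, 92.8%, 93.7% and 86.7% of the Plxna2 counts in CCl4 libraries 1 to 4, against 56.3%, 58.3%, 66.2% and 75.4% in vehicle libraries 1 to 4. The groups did not overlap (92.2% ± 3.86 in CCl4 and 64.1% ± 8.68 in vehicle, SD, n = 4 each), and the difference of 28.1 points again had the smallest possible exact permutation p of 0.0286, or 0.129 adjusted. The remaining vehicle counts were assigned to shorter models of the gene, which lies at chr1:194618218-194816869 (plus strand, mm10).

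Plxna3 had 1.62, 2.09, 1.54 and 1.62 CPM in CCl4 libraries 1 to 4, against 1.12, 1.30, 1.07 and 0.960 CPM in vehicle libraries 1 to 4. Its groups did not overlap in CPM, but at this low level the log2 fold change of 0.63 ± 0.35 (SE) did not pass (edgeR adjusted p = 0.279). On TPM and FPKM values the Plxna3 groups overlapped. Plxna4, a receptor of Sema3a and Sema6a, averaged 13.2 ± 3.47 CPM in CCl4 and 15.6 ± 2.16 CPM in vehicle libraries (SD, n = 4 each) and was not called (log2 fold change -0.25, edgeR adjusted p = 0.476).

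B-type plexins, the receptors of class 4 semaphorins, had no called member, although their ligands Sema4d and Sema4a rose. Plxnb2 had 247, 292, 388 and 255 CPM in CCl4 libraries 1 to 4, against 261, 95.9, 269 and 255 CPM in vehicle libraries 1 to 4. The groups overlapped and vehicle 2 alone lay far below the rest. Its log2 fold change was 0.42 ± 0.29 (SE, edgeR adjusted p = 0.382), with an approximate 95% interval of -0.14 to 0.99. Plxnb2 held 79.3%, 85.5%, 83.8% and 78.2% of the plexin TPM in CCl4 libraries, against 86.5%, 87.7%, 87.4% and 84.2% in vehicle libraries. Part of its TPM was assigned to 6 models of under 1000 bases that are not annotated as protein-coding. They held between 44.7% and 60.0% of it in CCl4 libraries and between 44.7% and 87.1% in vehicle libraries. The level of Plxnb2 per length is therefore less certain than that of Nrp1.

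Plxnb1, the high-affinity receptor of Sema4d, was scarce, with 0.324, 0.276, 0.996 and 1.19 CPM in CCl4 libraries 1 to 4, against 1.12, 1.58, 0.554 and 0.920 CPM in vehicle libraries 1 to 4. The groups overlapped and the edgeR adjusted p was 0.58. Plxnb3, a receptor of Sema5a, averaged 10.4 ± 2.16 CPM in CCl4 and 7.21 ± 2.16 CPM in vehicle libraries (SD, n = 4 each) and was not called (edgeR adjusted p = 0.198).

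Plxnc1, the receptor of Sema7a, had 23.0, 20.5, 20.0 and 16.6 CPM in CCl4 libraries 1 to 4, against 11.5, 13.6, 11.2 and 17.0 CPM in vehicle libraries 1 to 4. CCl4 4 lay just below vehicle 4, so the groups overlapped. The log2 fold change of 0.59 ± 0.18 (SE) passed narrowly (edgeR adjusted p = 0.044) and was lost in 10 of the 17 alternatives. It was lost without CCl4 1, CCl4 2, CCl4 3, vehicle 1 or vehicle 3 (adjusted p = 0.113, 0.0914, 0.0740, 0.0986 and 0.123), when scaled by library size alone (0.44, adjusted p = 0.132) or by upper quartiles (adjusted p = 0.0823), with a replicate block (0.60, adjusted p = 0.0869), and on TPM and FPKM values (limma adjusted p = 0.405 and 0.403). Plxnc1 lies at chr10:94790866-94944835 (minus strand, mm10). Its ligand Sema7a was at most 0.143 CPM in CCl4 and 0.198 CPM in vehicle libraries.

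Plxnd1, the receptor of Sema3e, had 15.5, 10.6, 18.2 and 13.1 CPM in CCl4 libraries 1 to 4, against 8.81, 7.71, 10.3 and 11.0 CPM in vehicle libraries 1 to 4. CCl4 2 lay just below vehicle 4. The log2 fold change of 0.60 ± 0.20 (SE) did not pass (edgeR adjusted p = 0.0679), but did in 2 of the 17 alternatives, without CCl4 2 (adjusted p = 0.0390) and in DESeq2 (0.0485).

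The leading transcript's share was also compared in Sema4a, Sema4b, Sema4c, Sema6a, Sema6d, Plxnb2 and Plxnb3. The groups overlapped in all 7, and adjusted p ran from 0.617 to 0.971 in exact permutation tests.

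Genes that work with the family, and genes of other guidance families, were described as 3 lists. The first held 22 other receptors, partners, shared ligands and genes of related name. Of these 21 were tested and 6 were higher and 5 lower, with a median log2 fold change of 0.10. Among all tested genes 8.93% were higher and 6.26% lower. Met, the hepatocyte growth factor receptor, which can pair with B-type plexins, had 42.8, 11.8, 26.5 and 15.5 CPM in CCl4 libraries 1 to 4, against 1.56, 3.44, 1.31 and 1.24 CPM in vehicle libraries 1 to 4. No CCl4 library reached down to the vehicle range (log2 fold change 3.69 ± 0.46 SE, edgeR adjusted p = 0.00031). Vegfa, a neuropilin ligand, averaged 72.2 ± 11.7 CPM in CCl4 and 8.16 ± 4.55 CPM in vehicle libraries (SD, n = 4 each; log2 fold change 3.15, edgeR adjusted p = 0.000194). Trem2, a lipid-sensing receptor of myeloid cells, averaged 553 ± 100.2 CPM in CCl4 and 53.5 ± 8.34 CPM in vehicle libraries (log2 fold change 3.37, edgeR adjusted p = 2.63e-06).

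Also higher were Plxdc1 (log2 fold change 2.42), a membrane protein named for a plexin-like domain but not a plexin, and Pgf (1.96), a relative of Vegfa. Timd4 (-2.45), an apoptotic-cell receptor that is also among the Kupffer cell markers, Erbb2 (-2.35), a receptor that can pair with B-type plexins, and Flt4 (-1.40), the VEGF-C receptor, were lower. Erbb2 was scarce, with 0.971, 0.670, 0.860 and 0.0476 CPM in CCl4 libraries 1 to 4, against 5.41, 0.882, 2.33 and 4.48 CPM in vehicle libraries 1 to 4. Its groups overlapped, and the call was narrow (edgeR adjusted p = 0.045). The other called genes of the list were Plxdc2, which was higher, and the VEGF receptors Kdr and Flt1, which were lower and are also among the endothelial markers. Tyrobp and Cd72, named after their values were seen, averaged 1330 ± 197 and 380 ± 49.8 CPM in CCl4 libraries, and 1239 ± 95.3 and 418 ± 45.9 CPM in vehicle libraries. Neither was called (log2 fold changes 0.10 and -0.14, edgeR adjusted p = 0.735 and 0.628), so the Sema4d receptor Cd72 was abundant in both groups.

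The second list held 37 cytoplasmic effectors of plexins, of which 35 were tested, 3 were higher and 5 lower, with a median log2 fold change of -0.10. Among all tested genes 8.93% were higher and 6.26% lower, and the share of effectors called higher was near the former. Higher were Mical2 (1.54) and Mical1 (1.10), enzymes that oxidize actin, and Limk1 (1.43), the kinase of cofilin. The lower genes included Dpysl3 (-1.01), a collapsin response mediator, Rras (-0.99), the GTPase inactivated by plexins, and Rock2 (-0.78). Also lower were Rnd1 (-0.82) and Rnd3 (-0.80), small GTPases of the Rnd family. Rras had 14.6, 12.7, 16.0 and 17.2 CPM in CCl4 libraries 1 to 4, against 27.03, 32.0, 32.3 and 28.9 CPM in vehicle libraries 1 to 4 (edgeR adjusted p = 0.000788). Its groups lay wide apart.

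The third list held 38 genes of the other guidance families, the netrins, slits and ephrins with their receptors, of which 30 were tested. By edgeR 0 were higher and 5 lower, beside 8.93% higher and 6.26% lower among all tested genes. The median log2 fold change of the list was -0.28. DESeq2 also called 0 higher, and at an unadjusted p under 0.05 edgeR had 1 higher and 8 lower. The lower genes were the ephrin receptors Epha3 (-2.20) and Ephb4 (-1.72), the ephrins Efna1 (-1.14) and Efnb1 (-0.95), and the netrin Ntn4 (-1.58), none above 11.7 CPM in any library. Some of these genes are known from endothelium, and the endothelial markers given above were lower in CCl4 libraries; their part was not tested.

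**Figure D5:**
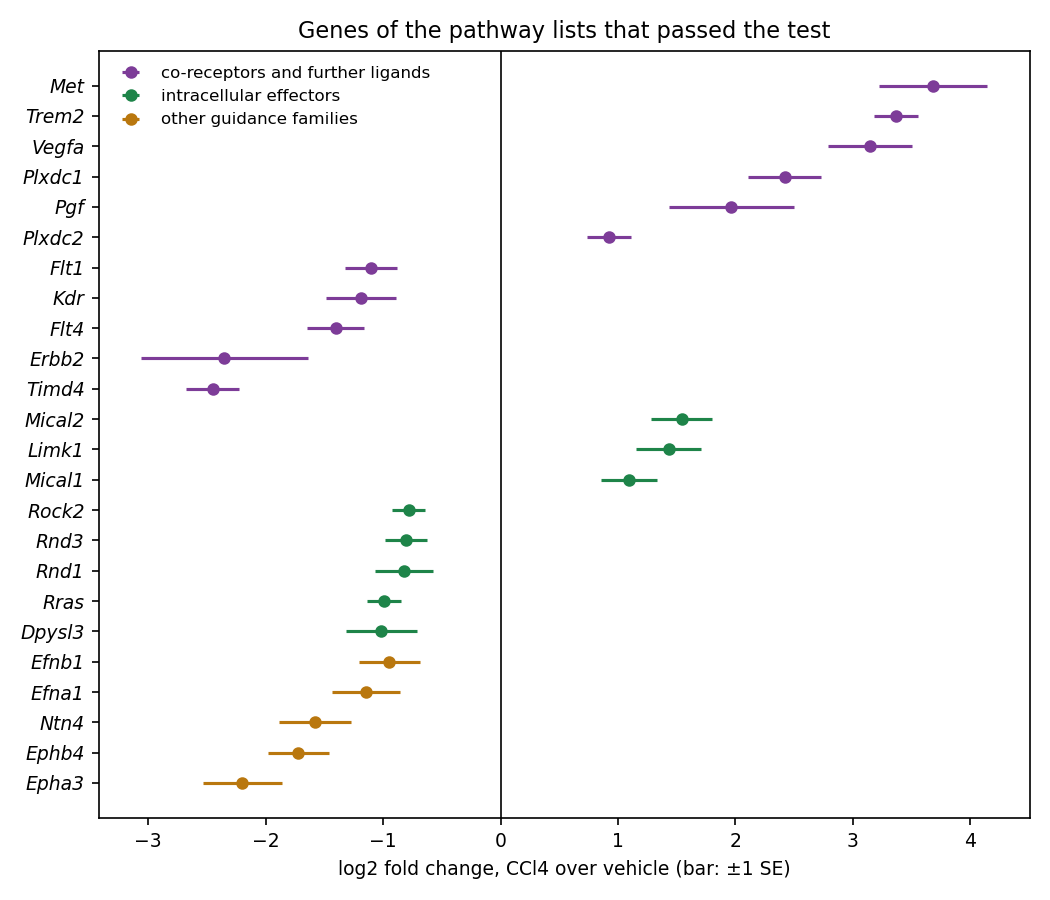
Log2 fold change of CCl4 over vehicle (edgeR) for the called genes of the partner, effector and other guidance lists, coloured by list, with bars of 1 standard error. Partner genes lie on both sides, between Met at 3.69 and Timd4 at -2.45, and all 5 other guidance genes lie below 0.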

How the data were processed

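Per the labels' protocols, RNA was amplified with SMART-Seq HT before NEBNext Ultra II library preparation. The estimated counts and TPM deposited by the authors are kallisto values per transcript, and a table of FPKM per gene was also deposited by the authors. The submitters' processing notes name mm10, kallisto, edgeR and limma, with no versions, and say nothing on the making of the FPKM table. Of 117494 transcripts, 116405 matched GENCODE M21 identifiers without version suffix; the rest, at most 0.313% of a library's counts, were left out. Summing per gene gave 35906 genes, whose totals were rounded.

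The groups were compared with the quasi-likelihood test of edgeR 4.0.16 in R 4.3.3 (TMM, filterByExpr at counts of 10 and totals of 15), two-sided, with Benjamini-Hochberg adjustment over 15212 genes. The script was tested on simulated data. Standard errors are the log2 fold change over the square root of F. Alternatives used other scalings, DESeq2 1.42.0, no count filter, libraries left out, a replicate block, and limma 3.58.1 on log2(TPM + 0.5) and log2(FPKM + 0.5). The leading transcript's share was tested by exact permutation in genes with a mean of 100 or more counts in each group and 2 transcripts holding at least 10%.

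Values were given per library for called members, the 6 highest by TPM and those whose call changed, with further members added after their values were seen; of the lists, at most the 8 called genes with the largest change were given. The members and lists were chosen with earlier results of these data known. Pairs of libraries of 1 group differed by a chi-square of at least 27.4 per gene on average, so none was a near-duplicate. Sequences were read from GENCODE M21 transcripts (mm10), and coordinates count from 1. Depth and precision are those of 8 libraries of 19489104 to 26196063 counts.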

Additional observations from a re-analysis of the deposited data

Results flagged for a closer look

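In 72 groups of 4 libraries (the members' CPM and the leading transcripts' shares in each condition), 1 library stood apart from the other 3 in 7 groups. Chance alone gives about 1 in 20 groups. Sema3f was 1.05 CPM in CCl4 4, where the other CCl4 libraries had 1.49 to 1.57 CPM. Plxna3 was 2.09 CPM in CCl4 2, where the other CCl4 libraries had 1.54 to 1.62 CPM. Plxna2 was 5.64 CPM in vehicle 4, where the other vehicle libraries had 3.56 to 3.67 CPM. Plxnb2 was 95.9 CPM in vehicle 2, where the other vehicle libraries had 254.8 to 269 CPM, and the share of Plxnb2-202 in its counts was 5.88% there, where the others had 53.3% to 56.0%. The share of Sema4a-214 in the Sema4a counts was 0.044% in CCl4 2, where the other CCl4 libraries had 50.5% to 55.0%, and 0.314% in vehicle 1, where the other vehicle libraries had 51.5% to 62.1%.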

How the results depend on the processing

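Of 17 alternatives, Sema4a, Sema4d, Sema6d and Nrp2 kept their call and direction in all, with log2 fold changes of 0.88 to 1.67, 1.17 to 3.64, -1.54 to -1.16 and 1.07 to 1.91. Of the 27 members, 21 kept their direction throughout. Members called higher numbered 3 on TPM and 3 on FPKM values, against 6. All genes called higher were 974 of 18713 on TPM and 630 of 12020 on FPKM values, against 1358 of 15212. Members called lower numbered 3 with scaling by library size only, 2 with upper-quartile scaling and 2 with the replicate block, against 1. All genes called lower were 1431, 1356 and 829 in these fits, in the same order, against 953, each of 15212. Scaling by library size only put the median of all genes at -0.16, against -0.029 with TMM, and the higher share of all calls at 43.1%, against 58.8% (47.5% with upper-quartile scaling); the members' median was then 0.19, and 0.022 to 0.45 over all alternatives. Partners called lower numbered 2 on TPM and 2 on FPKM values, effectors 0 higher and 3 lower on FPKM values, and other guidance genes 3 lower on TPM and 2 on FPKM values. Leaving out 1 library at a time gave 4 to 7 members higher and 1 to 2 lower, 5 to 6 partners higher and 3 to 5 lower, 3 effectors higher and 3 to 6 lower, and 0 other guidance genes higher and 3 to 5 lower. Over all genes these fits called 1004 to 1503 higher and 578 to 1163 lower, of 15446 to 15782 tested.

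Directions turned for members with no call or an unstable one. These were Sema3d (-0.10) and Plxnb1 (0.15) on TPM values, Plxna2 (-0.063) and Plxnb2 (-0.41) on FPKM values, Sema4g (-0.31 to 0.79, below 0 without CCl4 4 or vehicle 1) and Sema5a (-0.13 to 0.68, below 0 without CCl4 4) with 1 library left out. Of the transcript shares, with 1 library left out, that of Sema6a ran from -8.31 to 11.8 points (0.759 with all 8), below 0 without CCl4 1, CCl4 2, vehicle 1 or vehicle 2. That of Sema4a ran from -17.2 to 9.89 (-3.18 with all), above 0 without CCl4 2, vehicle 2 or vehicle 3, and that of Plxnb3 from -8.77 to 3.76 (-3.39 with all), above 0 without vehicle 2. Taking the leading Nrp2 transcript from vehicle libraries alone gave Nrp2-202, a different transcript, and -20.5 points. The cause of these shifts was not tested. Equal replicate numbers did not pair the libraries: their deviations correlated at 0.015, -0.241, 0.039 and -0.169, and 0 of 4 pairs correlated best with their own number. The replicate block called 4 members higher and 2 lower, beside 1281 higher and 829 lower of all 15212 genes. Members under about 2 CPM rest on few counts and limit what the test can detect.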
